A study of Mus musculus with 4 samples.

Results

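The shortest listed chromatin interactions of a mouse brain tumor were those whose 2 anchors lay 20 to 40 kb apart. They were chosen by distance alone, measured from the start of one anchor to the start of the other, and numbered 4643 of the 99041 interactions in the list. The list came from H3K27ac HiChIP and was read here as belonging to YAP-M tumor because its name carries the letters YM. The labels describe 2 libraries of tumor cells with the genotype YAP-M fusion, a name that stands for a fusion joining YAP1 to MAMLD1. They also describe 2 libraries of wild-type neural progenitor cells, cultured as neural stem cells with EGF, basic FGF and heparin. All 4 were treated with an antibody to H3K27ac, and the same culture protocol is given for all, so how the tumor cells were kept is not clear from the labels. The labels name brain as the tissue and give no age, strain, promoter or number of animals. The titles say ChIP-seq, whereas the protocol names a micrococcal nuclease HiChIP kit. The list names no library and carries no read count or score. No spread between replicates, no sequencing depth and no test could be had from it, and the neural stem cells were not analysed here.

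Chromatin folds so that sites far apart on the chromosome can touch in the nucleus, and proximity ligation joins the DNA of such sites into 1 fragment. HiChIP keeps the fragments that carry a chosen histone mark. H3K27ac, acetylation of a lysine in the tail of histone H3, marks active promoters and enhancers, and enhancers often lie close to the promoter they act on or inside a gene. Contacts also become more frequent as distance shrinks, whether or not the sites have a regulatory role, so many callers set each pair of sites against others at a like distance.

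Each anchor was a bin of 10 kb, so an interaction of 20 kb left a gap of a single bin between its anchors. Gene positions were those of RefSeq on GRCm38.p6, the assembly also called mm10. An anchor was counted at a gene end if its bin reached to within 2.5 kb of either end of the span of a protein-coding gene. Shares and rates are given with exact 95% intervals (Clopper-Pearson). They cover counting error only, and they are too narrow because neighbouring interactions are not independent.

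The promoters of 6 genes are shown as examples, because the genes are named in the results and because they differ in CpG content, which is described further on. Each is the RefSeq window of 250 bases before to 50 bases after a transcription start, 5′ to 3′ on the strand of the gene, and CpG dinucleotides are in capitals. Yap1 encodes the transcriptional co-activator YAP (minus strand, chr9:8004547-8004846), Notch1 a receptor that keeps neural stem cells undifferentiated (minus strand, chr2:26503773-26504072), Fabp7 the lipid-binding protein of radial glia (plus strand, chr10:57784673-57784972) and Olig2 a transcription factor of the oligodendrocyte lineage (plus strand, chr16:91225300-91225599). Laptm5, a lysosomal membrane protein of blood and immune cells (plus strand, chr4:130913066-130913365), and Matn1, the cartilage matrix protein matrilin 1 (plus strand, chr4:130944135-130944434), are a pair whose starts were joined by a 30 kb interaction.
Yap1: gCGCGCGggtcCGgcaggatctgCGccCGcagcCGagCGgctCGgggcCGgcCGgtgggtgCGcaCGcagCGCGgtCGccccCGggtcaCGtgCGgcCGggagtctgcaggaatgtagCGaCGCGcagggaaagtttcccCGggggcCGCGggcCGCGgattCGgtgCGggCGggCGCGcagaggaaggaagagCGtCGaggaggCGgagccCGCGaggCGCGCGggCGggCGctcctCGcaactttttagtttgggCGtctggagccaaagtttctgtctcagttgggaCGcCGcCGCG
Notch1: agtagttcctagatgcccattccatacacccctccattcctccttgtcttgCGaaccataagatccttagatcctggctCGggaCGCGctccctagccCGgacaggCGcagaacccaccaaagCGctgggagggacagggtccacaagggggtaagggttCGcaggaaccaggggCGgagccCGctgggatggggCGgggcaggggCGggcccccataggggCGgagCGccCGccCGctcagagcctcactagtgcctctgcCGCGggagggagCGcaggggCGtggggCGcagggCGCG
Fabp7: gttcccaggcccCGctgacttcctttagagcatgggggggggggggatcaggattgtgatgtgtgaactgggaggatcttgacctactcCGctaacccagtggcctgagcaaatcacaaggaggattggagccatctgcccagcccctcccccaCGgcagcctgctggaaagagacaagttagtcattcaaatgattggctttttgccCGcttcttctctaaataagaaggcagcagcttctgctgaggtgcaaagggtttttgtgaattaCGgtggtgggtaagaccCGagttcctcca
Olig2: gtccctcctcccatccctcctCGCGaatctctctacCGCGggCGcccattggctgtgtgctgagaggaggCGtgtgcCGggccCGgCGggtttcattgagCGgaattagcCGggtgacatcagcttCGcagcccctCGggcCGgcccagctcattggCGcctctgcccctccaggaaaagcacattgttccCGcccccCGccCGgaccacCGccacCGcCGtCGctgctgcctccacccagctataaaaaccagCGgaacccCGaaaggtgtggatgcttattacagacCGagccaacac
Laptm5: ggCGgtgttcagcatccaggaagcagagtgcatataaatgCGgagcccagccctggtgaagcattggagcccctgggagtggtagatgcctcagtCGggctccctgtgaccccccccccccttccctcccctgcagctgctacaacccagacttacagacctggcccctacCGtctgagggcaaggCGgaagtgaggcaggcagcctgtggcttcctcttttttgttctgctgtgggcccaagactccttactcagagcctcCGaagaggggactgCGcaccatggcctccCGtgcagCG
Matn1: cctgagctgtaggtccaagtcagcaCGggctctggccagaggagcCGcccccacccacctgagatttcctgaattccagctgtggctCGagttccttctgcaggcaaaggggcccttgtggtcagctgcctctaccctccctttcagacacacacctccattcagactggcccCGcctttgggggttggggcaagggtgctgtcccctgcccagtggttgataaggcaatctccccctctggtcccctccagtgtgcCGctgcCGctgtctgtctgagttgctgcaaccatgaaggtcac
The capitals make the difference visible. The Yap1 window held 49 CpG dinucleotides, those of Olig2 and Notch1 held 25 and 23, and those of Laptm5, Fabp7 and Matn1 held 9, 6 and 6. GC content ran from 54.0% at Fabp7 to 74.0% at Yap1.

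Short interactions were the start of a rising curve. There were 1007 interactions of 20 kb, 1454 of 30 kb and 2182 of 40 kb, and just outside the limit 2891 of 50 kb. Every pair of bins between the first and the last listed anchor of a chromosome was counted as a possible pair. Per 1000 possible pairs, 4.22 were listed at 20 kb, 6.09 at 30 kb, 9.14 at 40 kb and 12.1 at 50 kb, and the rate was highest, 16.3, at 100 kb. These values describe the selection by distance. No interaction under 20 kb was listed, and whether limits of the caller shaped the rise was not tested.

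**Figure D1:**
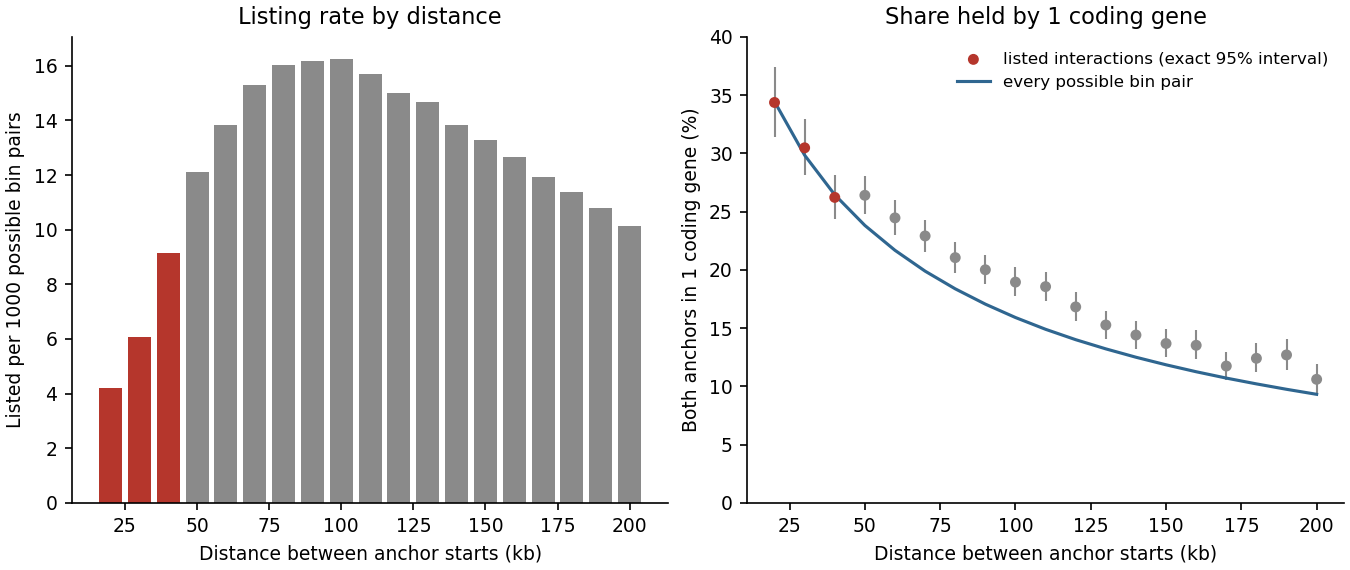
Left: interactions listed per 1000 possible pairs of bins (y axis) by distance between anchor starts in kb (x axis) up to 200 kb, with 20 to 40 kb in red. Right: the percentage of listed interactions with both anchors in the span of 1 coding gene (points, with exact 95% intervals) and of every possible pair (line). The rate rises from 4.22 at 20 kb to 16.3 at 100 kb, and the intervals of the red points include the line while the grey points lie above it.

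The short interactions lay in gene-dense chromatin. Coding genes whose midpoint fell within 500 kb of the midpoint of the interaction were counted. The median was 16 (interquartile range 9 to 26) for the 4643 short interactions, 8 (5 to 15) for the other 94398, and 5 for every possible pair 20 to 40 kb apart. The median fell with each class of distance, to 12 at 50 to 90 kb, 10 at 100 to 190 kb, 7 at 200 to 490 kb and 4 at 500 to 1000 kb. For possible pairs it was 5 in each of these classes. The counted window is centred between the anchors. For the longest interactions it covers mainly the stretch between them, so the classes of distance are not measured alike. Only 6 short interactions (0.129%) had no coding gene within 500 kb, whereas 11.4% of the possible pairs had none. At the other extreme, 9.02% of short interactions had 40 or more such genes, against 3.10% of the other interactions and 2.15% of possible pairs.

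**Figure D2:**
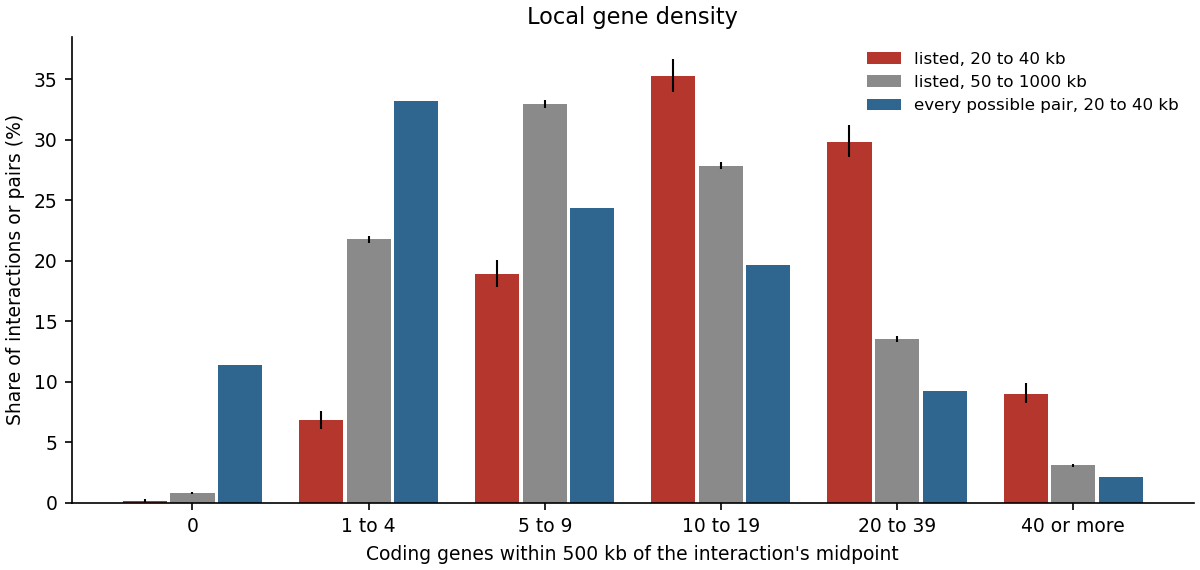
Percentage of short interactions (red), of the other listed interactions (grey) and of every possible pair of bins 20 to 40 kb apart (blue) on the y axis, by the number of coding genes within 500 kb on the x axis. Black lines are exact 95% intervals for the listed interactions, and the red bars are the tallest in the classes of 10 or more genes.

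The rate at which possible pairs were listed gives the same picture without the distance curve. Of 716610 possible pairs 20 to 40 kb apart, 6.48 per 1000 were listed. With 0 to 3 coding genes within 500 kb the rate was 0.686 (95% interval 0.591 to 0.792), with 4 to 9 it was 4.58 (4.30 to 4.87), and with 10 or more it was 15.5 (15 to 16). Pairs in the densest class were thus listed at 22.5 times the rate of those in the sparsest. The same ratio was 11.3 at 50 to 90 kb, 5.63 at 100 to 190 kb, 2.39 at 200 to 490 kb and 0.540 at 500 to 1000 kb. Because the window is centred between the anchors, these ratios are not measured alike across distances either. The class of 4 to 9 genes had the highest rate of the 3 from 200 kb upward, 7.01 against 5.83 in the densest class at 200 to 490 kb. At 500 to 1000 kb its rate was 0.935, against 0.90 in the sparsest class, with overlapping intervals, and 0.486 in the densest. Bins that cannot be mapped and bins without H3K27ac count among the possible pairs, and their part in these rates was not tested.

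Gene density was higher than for the other interactions on every chromosome, by the median, in 19 of 19. Chromosome 11 had the most short interactions per Mb (3.74, and 6.71% of its list) and chromosome 16 the fewest (1.17, and 2.64%). Across the 19 chromosomes, short interactions per Mb and coding genes per Mb had a Pearson correlation of 0.831 and a Spearman correlation of 0.879. Without chromosomes 7 and 11, Pearson's value was 0.843. These are descriptions of 19 chromosomes that share 1 list and its depth.

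Short interactions also sat at gene ends. Their 4643 calls used 7549 distinct anchors, which is 13.4% of the 56427 anchors in the list. Of these, 3540 (46.9%, 95% interval 45.8 to 48%) were at a coding-gene end, 26.0% overlapped the body of a gene only and 27.1% were between coding genes. The share at ends was 39.2% at 50 to 90 kb, 34.9% at 100 to 190 kb, 32.7% at 200 to 490 kb and 33.9% at 500 to 1000 kb. Among the short anchors away from coding-gene ends, 1251 (16.6% of all short anchors) touched the end of a noncoding gene.

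By what they joined, 1128 short interactions (24.3%) linked ends of different coding genes. Another 79 (1.70%) linked both ends of 1 gene, with no other coding gene's end at either anchor. Links between both ends of 1 gene that also touched another gene's end are in the first count. A further 2074 (44.7%) had 1 anchor at an end, and 1362 (29.3%) had none. For the other interactions together, 17.3% linked different genes and 39.1% had no anchor at an end. Possible pairs with both bins at ends were listed at 25.2 per 1000, those with 1 at 13.4 and those with none at 2.65, a ratio of 9.52 between the first and the last. At 50 to 90 kb the ratio was 6.44. Bins without H3K27ac count among these possible pairs as well, and the part of the mark in the ratios was not tested. Gene density and gene ends go together, so the rates were also taken within each class of density. In the class of 10 or more genes, 27.2 per 1000 were listed with both bins at ends and 8.26 with none, and in the class of 4 to 9 genes the rates were 15.7 and 2.85. In the sparsest class the rate with both bins at ends rested on 2 interactions of 523 possible pairs. The ratio of both to none within these classes, from sparse to dense, was 7.63, 5.52 and 3.29 for short pairs. It was 16.4, 4.34 and 2.61 at 50 to 90 kb, 17.6, 6.82 and 4.24 at 200 to 490 kb, and 32.7, 24.4 and 14.5 at 500 to 1000 kb. Within classes of density, short pairs therefore did not have the highest ratio. The share with any anchor at an end was above that of the other interactions on 18 of 19 chromosomes, chromosome 18 being the exception (54.4% against 57.4%).

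An interaction can pass over a gene that it does not touch. In 948 short interactions (20.4%), the bins between the anchors held the end of a coding gene that was at neither anchor, against 12.4% of possible pairs. Short interactions lay in denser chromatin than possible pairs, with medians of 16 and 5 genes within 500 kb. These shares were not taken within classes of density. Of the 3282 short interactions not held by 1 gene, 929 (28.3%) skipped such an end and 2353 did not. The same share was not counted for possible pairs.

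A single coding gene held both anchors, by any overlap of both bins with its span, in 1361 of 4643 short interactions (29.3%, 95% interval 28.0 to 30.6%). The share was 22.7% at 50 to 90 kb, 15.1% at 100 to 190 kb, 6.84% at 200 to 490 kb and 2.51% at 500 to 1000 kb, and 12.2% over all other interactions. Short interactions were above the others on 19 of 19 chromosomes. The comparison with possible pairs gave another order. Of every possible pair 20 to 40 kb apart, 30.2% were held by 1 gene, which lies within the interval of the listed share, and the listed share was higher on 8 of 19 chromosomes. Distance by distance, the listed and possible shares were 34.4% and 34.4% at 20 kb, 30.5% and 29.8% at 30 kb, and 26.2% and 26.4% at 40 kb. At 50 kb they were 26.4% and 23.8%.

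The definition of holding decided how the shares stood to each other. With both bins wholly inside the gene, 13.9% of short interactions and 24% of possible pairs were held by 1 gene. With both bin midpoints inside, the shares were 20.4% and 26.7%. By any overlap with all annotated genes, they were 32.4% and 34.6%. In rates, 6.28 per 1000 possible pairs within 1 gene were listed (95% interval 5.95 to 6.62) and 6.56 of the other pairs (6.34 to 6.79), intervals that overlap. Within classes of density the order differed. With 0 to 3 genes nearby, the rate inside 1 gene was 0.983 (0.762 to 1.25) and that of the other pairs 0.587 (0.487 to 0.702), a ratio of 1.67 with intervals that do not overlap. With 4 to 9 genes the ratio was 0.864 and the intervals overlapped. With 10 or more, the rates were 14 (13.1 to 14.9) and 16.1 (15.5 to 16.7), a ratio of 0.870 with intervals that do not overlap. At 50 to 90 kb the ratios were 2.08, 1.22 and 1.45. Where both bins were anchors of the list, 40.5 per 1000 pairs within 1 gene and 55.8 of the other pairs were listed as short interactions.

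**Figure D3:**
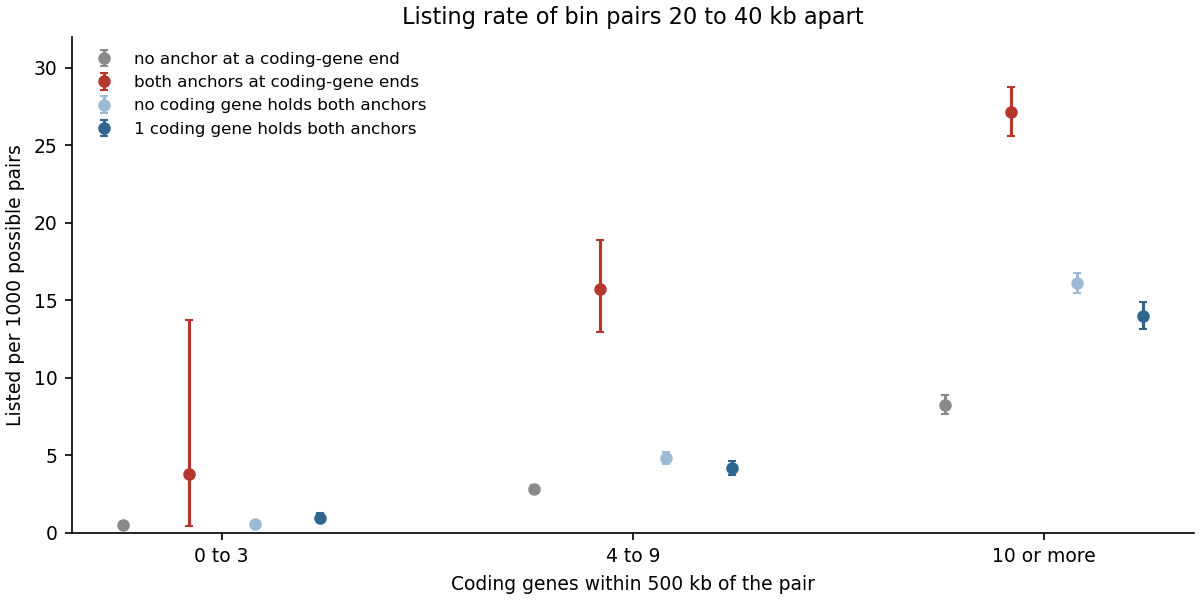
Interactions of 20 to 40 kb listed per 1000 possible pairs (y axis, with exact 95% intervals), by the number of coding genes within 500 kb (x axis). Pairs with both bins at coding-gene ends stand above pairs with none in each class by their central values (27.2 against 8.26 with 10 or more genes), while pairs held by 1 gene lie above the others in the sparsest class (0.983 against 0.587) and below them in the densest (14 against 16.1).

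Of the 1361 interactions within 1 gene, 664 (48.8%) ran from an end of that gene to its inside, 509 (37.4%) lay wholly between its ends and 188 (13.8%) joined its ends. The 188 include calls that also touched an end of another gene. For 19 of the 1361, more than 1 gene held both anchors. The holders were 973 of 20665 coding genes (4.71%), of which 644 held 1 interaction and 32 held 4 or more. Their median length was 79.0 kb (interquartile range 46.2 to 146 kb), against 49.3 kb for the 9576 coding genes of 20 kb or more. Length alone did not order them. The share of genes holding a short interaction was 4.80% at 20 to 50 kb of length, 14.3% at 50 to 200 kb, 17.3% at 200 to 500 kb and 16.7% over 500 kb. Per Mb of gene span the calls numbered 1.98, 2.43, 0.853 and 0.323 in the same order. Interactions within 1 gene had a median of 14 coding genes within 500 kb, and the other short interactions 17.

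The genes with the most short interactions inside their spans were long genes. A longer span holds more pairs of bins at this distance, so a ranking by count favours them. Tns1, which encodes the focal adhesion protein tensin 1 (chr1:73910232-74124548), held both anchors of 9 short interactions. They ran from 20 to 40 kb, and 3 of them reached the bin at the high end of the gene. Septin9, a subunit of septin filaments (chr11:117199661-117362325), held 8, and 7 of these lay away from both ends. Chn2, which encodes the Rac-inactivating protein beta-chimaerin (chr6:54039932-54301812), held 7, of which 3 touched its low end. Gramd4 and Gfod1 held 6 each, and Acot7, an acyl-CoA thioesterase, and Ptpre, a receptor tyrosine phosphatase, held 5 each. The Ugt1a genes, which encode glucuronidating enzymes of detoxification, overlap one another and share their last exons, so the 6 short interactions there were counted for Ugt1a8, Ugt1a9 and Ugt1a10 alike.

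Over all coding genes, 3850 of 20665 (18.6%) had at least 1 short interaction at an end, and 13580 (65.7%) had at least 1 interaction of any distance. Of the 3850, 2449 had 1, 943 had 2, 329 had 3, 98 had 4, 21 had 5, 8 had 6 and 2 had 7. For 440 of them (11.4%) every interaction at an end was short. Where several genes had an end in 1 bin, its interactions were counted for all of them, so the leading genes come in neighbouring sets.

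Gid8, a subunit of an E3 ubiquitin ligase (chr2:180710122-180721599), had 7 short interactions among 15. Dido1, a chromatin-binding protein that begins next to it, had 6 among 11, the largest short share (54.5%) of genes with 10 or more interactions. The same 6 calls counted for both genes. They reached bins inside Dido1 and the bin at an end of Slc17a9, the vesicular nucleotide transporter. Kiss1r, the receptor of the hormone kisspeptin (chr10:79916952-79924088), also had 7, among 18. Its 2 end bins were shared with Arid3a, a DNA-binding transcription factor with 6 among 24, Med16, a Mediator subunit, and R3hdm4. The partners lay at Cfd, Elane and Prtn3, which encode serine proteases of complement and neutrophils, and along Arid3a. Within 120 kb that held 12 coding genes there were 8 short and 3 longer interactions.

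Olig1, a transcription factor of oligodendrocyte development (chr16:91269769-91271939), was the contrast in gene density. It had 6 short interactions among 8, none longer than 50 kb, in a 140 kb window with only Olig2 as another coding gene. The distances were 20, 30 and 40 kb toward the lower coordinates, and 30 kb in 1 call and 40 kb in the others toward the higher ones. The 40 kb call reached the Olig2 promoter bin whose sequence is printed above, and the 30 kb call reached the next bin. The partners on the other side held no coding-gene end.

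Cd300c, a receptor of the CD300 family on leukocytes (chr11:114956105-114960507), had 6 among 12. Every short partner bin held an end of another family member, Cd300lb on one side and Cd300ld, Cd300c2, Cd300ld2 or Cd300ld4 on the other. Pnp, purine nucleoside phosphorylase, had 6 among 20, and 5 of them shared the bin with its paralog Pnp2 (chr14:50950001-50960000), 1 of the 2 bins with the most short interactions. The other such bin (chr14:79420001-79430000) holds ends of Mtrf1, a mitochondrial translation release factor, and Kbtbd7, an adaptor of a ubiquitin ligase. Mtrf1 had 6 among 16, and its partners included Kbtbd6, the close relative of Kbtbd7. Themis2, a signalling adaptor of B cells and macrophages, had 6 among 8, with partners at Ppp1r8, Smpdl3b and Xkr8.

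**Figure D4:**
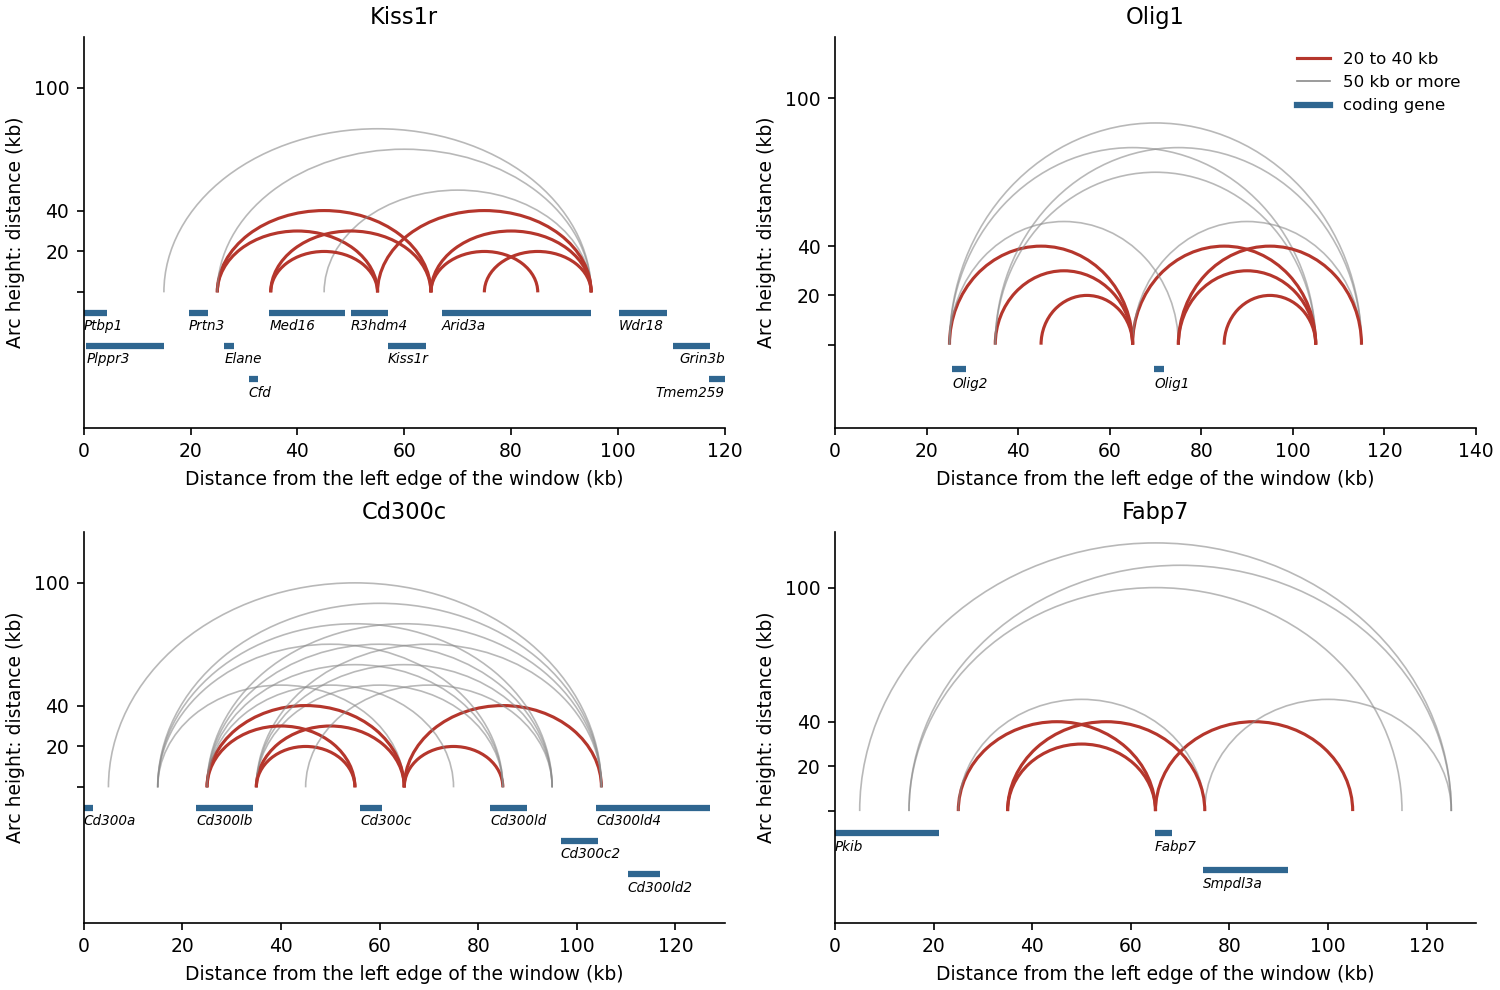
Short interactions (red arcs), longer interactions (grey arcs) and coding genes (blue bars) around Kiss1r, Olig1, Cd300c and Fabp7. The x axis is the distance from the left edge of each window in kb and the height of an arc is its distance in kb. The Kiss1r window holds 12 coding genes and 8 short interactions, whereas the Olig1 window holds 2 and 7.

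Adjacent short calls formed a few larger groups. The largest, of 8 calls (chr10:80920001-81000000), covered Gadd45b, a stress-induced gene on the YAP/TEAD list, the G-protein subunit gene Gng7 and an end bin counted for Lmnb2, which encodes lamin B2. Groups of 6 calls lay at the Ugt1a cluster, at Laptm5 and Matn1, at Car6, a secreted carbonic anhydrase, with Eno1, the glycolytic enzyme enolase, and at Tpcn1, an endolysosomal cation channel, with Iqcd and Rita1. Of the 3159 groups in all, 2167 (68.6%) were single calls and 29 had 5 or more. An adjacent call of any distance, with both anchors no more than 1 bin away, stood beside 68.3% of short interactions and 89.9% of the list. By distance the share was 46.7% at 20 kb, 68.7% at 30 kb, 78.0% at 40 kb and 83.0% at 50 kb. The lower limit of the list bears on this, since 3 of the 8 neighbours of a 20 kb call, and 1 of the 8 of a 30 kb call, would be shorter than any listed interaction.

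The share of short interactions was smaller at genes with many interactions. Only a few bins lie 20 to 40 kb from the ends of a gene, which limits how many short interactions it can have whatever its total. Among coding genes with 1 to 4 interactions of any distance at their ends, 12.9% of interactions were short, and the share fell to 7.80%, 4.54%, 1.64% and 0.376% with 5 to 9, 10 to 19, 20 to 49 and 50 or more. The share of genes with at least 1 did not fall steadily, being 23.0%, 32%, 35.8%, 27.7% and 24.6% (16 of 65 genes), and 28.4% over all genes with an interaction. Local density moved with these classes, with medians of 16, 16, 15, 10 and 5 coding genes within 500 kb, and its part in the result was not tested. The genes with the most interactions among those without a short one were picked for having none, so they only show which genes these are. Bcl6, a transcriptional repressor, had 144 interactions and 0 short ones, the shortest being 90 kb. Nrp1, a semaphorin and VEGF co-receptor, had 0 of 99, Enc1 0 of 92, the AP-1 gene Jun and the Krüppel-like factor gene Klf6 0 of 90 each, the antiproliferative gene Btg1 0 of 86 and the matrix gene Thbs1 0 of 84. Myc had 1 of 104, at 40 kb.

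Genes of the YAP pathway differed among themselves. Yap1 itself had 2 short interactions, of 30 and 40 kb, among 3 in all. Both ran from the bin with the promoter printed above into the body of the gene. This says nothing of the fusion, since the list does not tell the alleles apart. The TEAD gene Tead1 had 0 short of 28, and the targets Ccn1, Ccn2 and Ankrd1 had 0 of 21, 0 of 13 and 0 of 17. Of 22 genes on the YAP/TEAD target list, 5 (22.7%) had a short interaction although 21 had some interaction. These were Arhgef17 with 4 of 12, the angiomotin-family gene Amotl2 with 3 of 17, Gadd45b with 3 of 8, the kinase gene Nuak2 with 2 of 5 and Dock5 with 1 of 18. On the Hippo pathway list the count was 8 of 21 (38.1%), and none had more than 2. Yap1 (2 of 3), the protocadherin gene Dchs1 (2 of 5), Vgll4, a TEAD cofactor (2 of 8), and Wwc1 (2 of 12) tied, and Vgll4 held 4 inside its span.

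Of 18 genes of neural stem cells and radial glia, 8 (44.4%) had a short interaction. Fabp7 had 4 of 9, which joined its bins to sites at 30 and 40 kb on one side, including an end of Pkib, and 40 kb on the other. Notch1 had 3 of 8, 1 of them from the promoter bin to a site 40 kb away and the others between its low end and its body. Nes, the intermediate filament gene nestin, had 3 of 7, with partners at Crabp2, Isg20l2, Bcan and its own other end. Sox2 had 0 of 27 and Hes1 0 of 50. On the AP-1 list the count was 6 of 12 (50%), with Fosb at 4 of 7 and Batf at 3 of 14. On the cell cycle list it was 4 of 18 (22.2%), with the CDK inhibitor gene Cdkn1a at 3 of 8 and Mki67 at 2 of 3, while Ccnd1 had 0 of 63. Matrix and cytoskeleton genes had 8 of 17 and broadly expressed genes 5 of 12.

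Markers of other cell types that a brain tumor can hold were read the same way. The ependymal list had 2 of 15, Foxj1, the master regulator of motile cilia, with 1 of 9, and Dnaic1, a dynein gene of cilia, with 2 of 11. The microglia and macrophage list had 6 of 14, among them Spi1 with 2 of 8 and Cx3cr1 with 2 of 3. The oligodendrocyte list had 4 of 10, with Olig1 and Olig2 (2 of 8) supplying most of its short interactions, the astrocyte list 4 of 11, the pericyte and fibroblast list 3 of 10, the neuron list 2 of 14 and the endothelial list 1 of 10. Genes of unrelated tissues had 2 of 14, 1 of these being the T cell gene Cd3e, whose short partner held ends of Cd3d and Cd3g. The median number of short interactions per gene was 0 in all 15 lists except AP-1, at 0.5, and 0 over all coding genes. The lists hold 10 to 22 scored genes each, so their intervals are wide. The interval lay above the 18.6% of all coding genes for the AP-1, neural stem cell and matrix lists and included it for the others. These intervals count genes as independent and were not adjusted for the 15 lists, so they are not a test of any list. List genes also had interactions of any distance more often than the 65.7% of all coding genes, except on the ependymal (9 of 15), neuron (9 of 14) and unrelated-tissue (8 of 14) lists. Among genes with any interaction, 28.4% of all coding genes had a short one, against 54.5% on the AP-1 list (6 of 11). The share was 47.1% on the neural stem cell and matrix lists (8 of 17 each). It was also above 28.4% on the oligodendrocyte (44.4%), microglia (42.9%), broadly expressed (41.7%), Hippo (38.1%), astrocyte (36.4%) and pericyte (33.3%) lists. It was lower on the other lists, such as YAP/TEAD (23.8%) and endothelial (14.3%). For 8 of 17 the exact 95% interval, 22.98 to 72.19%, included 28.4%, and for 6 of 11 none was taken.

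**Figure D5:**
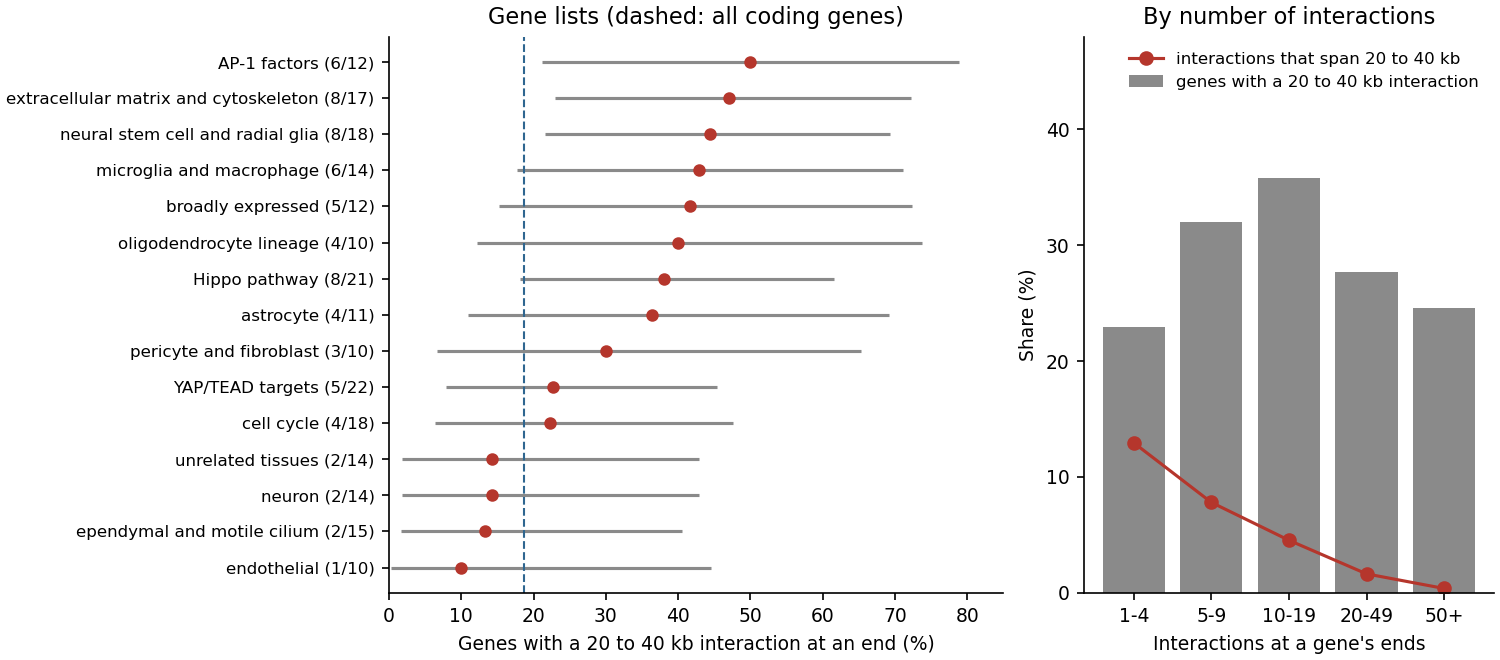
Left: percentage of scored genes with a short interaction at an end (x axis, points with exact 95% intervals) for each gene list, with the number of genes beside its name and the 18.6% of all coding genes as a dashed line. Right: coding genes by their number of interactions of any distance (x axis), with the percentage that have a short one (bars) and the percentage of their interactions that are short (points). The points fall from 12.9% to 0.376% while the bars peak at 35.8%.

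Most short anchors were used once at this range. Of 7549, 6050 (80.1%) had 1 short interaction, 1287 had 2, 188 had 3, 22 had 4 and 2 had 5. A longer interaction was also listed at 5342 (70.8%), and 2207 (29.2%) had none. Coding-gene ends were at 49.6% of the anchors with both kinds, 40.2% of those with short interactions alone and 30.8% of those with longer ones alone. Anchors with 30 or more longer interactions had a short one in 8 of 151 cases (5.30%), against 13.2% of those with 10 to 29, 13.1% with 3 to 9 and 7.56% with 1 or 2. In 1967 short interactions (42.4%), both anchors were also joined to the same further bin. This share was not counted for longer interactions or possible pairs, so it cannot be called high or low.

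Start sites could be told from other gene ends for 16457 of the 20665 coding genes through the RefSeq promoter table, which held none on chromosome 18. A start lay in 2397 of 7332 short anchors off that chromosome (32.7%), and in 21.6% of all anchors. Starts of different genes were joined by 528 of 4518 short interactions (11.7%), 1912 (42.3%) had a start at 1 anchor only and 2044 (45.2%) at none. Where an anchor held the start of 1 gene, the partner lay downstream, in the direction of transcription, in 1222 of 2607 cases (46.9%, 95% interval 44.9 to 48.8%), and in the same gene in 22.2%. At 50 to 90 kb these shares were 49.1% and 18.1%.

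The promoters at short anchors held more CpG than those with no anchor, as did those of genes with longer interactions alone. The 2997 windows at short anchors had a median of 18 CpG dinucleotides and a GC content of 60.3%. The 9225 windows with longer interactions alone had 19 and 60.0%, and the 7863 with no anchor had 5 and 50.3%. Observed over expected CpG reached 0.6 in 59.2%, 64.4% and 26.8% of these windows, and in 48.9% of all 20085. The GC box GGGCGG was present on either strand in 58.9% of windows at short anchors, 58.1% with longer alone and 47.0% of all. The TATA box TATAAA was present in 7.54%, 8.24% and 12.7%, and CCAAT in 36.6%, 37.3% and 38.1%. The AP-1 motif TGANTCA was in 6.64%, 5.28% and 7.06% in the same order, and the TEAD motif CATTCC in 13.2%, 12% and 13.4%. In windows with no anchor, GGGCGG was in 29.5%, TATAAA in 19.9%, CCAAT in 39.6%, TGANTCA in 9.30% and CATTCC in 15.1%. None of these motifs contains another, and a match is a description of the sequence only. The printed windows span this range. Notch1 held GGGCGG 5 times and CATTCC in 2 places, and Yap1 held GGGCGG 2 times and CATTCC in 1 place. Olig2 held 1 TATAAA, 2 CCAAT and 2 GGGCGG. Laptm5 held 1 TATAAA and 1 CCAAT, Fabp7 held 2 CCAAT and Matn1 held 1 GGGCGG.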

How the data were processed

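Per the file headers, the deposited list gives the chromosome, start and end positions of both anchors of each interaction, with no score and no column for a library. BWA and the mm10 build were used, per the submitters' processing notes. For the interaction caller, its threshold and any pooling of libraries, the sources used here give nothing.

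Interactions with anchor starts 20 to 40 kb apart were kept, and all listed distances were multiples of the 10 kb bin. Genes came from a RefSeq table of GRCm38.p6 (20665 autosomal protein-coding genes), and start sites and promoter sequences from a RefSeq table of the same build, which matched 16457 of them. Possible pairs are all bin pairs at a distance between the first and the last listed anchor of a chromosome, counted in full. Intervals are exact at the 95% level. Python 3.11.15, numpy 2.4.6, pandas 2.3.3, scipy 1.17.1 and matplotlib 3.10.9 were used, and the counting functions were tested on simulated data.

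With 1 list and no values per library, nothing was tested between samples. The members, the 15 gene lists (218 symbols, of which 212 could be scored) and the settings were chosen with earlier results of these data known, so no list is independent evidence. Genes were named by rule: the 10 with the most short interactions at an end and the 10 with the most inside their span, genes at the 10 most used bins and in the 5 largest groups, the leading 2 of each list, the 8 with the largest short share and the 8 with the most interactions but 0 short among genes with 10 or more, and 12 named in advance, such as Yap1 and Myc. Some genes that the rule names are left out of the text. Other list genes and neighbours at the partner bins were named after their values were seen. The rates by density class, the promoter motifs, the side of the partner and the comparison of gene symbols were also added after the data were seen. Tried as alternatives were other distance limits, gene-end windows, gene sets, definitions of holding, density windows and the merging of adjacent calls.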

Additional observations from a re-analysis of the deposited data

How the results depend on the processing

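No paired analysis was possible because 1 list stands for the libraries together, without a value for each, and so no replicate could be left out. With 20 and 30 kb only, there were 2461 interactions, and with 20 to 50 kb there were 7534. The share held by 1 gene was 13.9% with both bins wholly inside, 20.4% with both midpoints inside, 32.4% with all annotated genes, 32.1% at 20 and 30 kb, and 31.2% after merging adjacent calls. With gene-end windows of 0 and 5 kb, anchors at ends were 37.8% and 53.3%, and links between genes 16.3% and 31.0%. Links between both ends of 1 gene, with no other gene's end at an anchor, were 1.21% and 2.13%. Interactions with no anchor at an end were 39.3% and 23.6%. Those with 1 anchor at an end were 43.2% at 0 kb. With transcription starts alone, off chromosome 18, anchors at starts were 32.7% and links between starts of different genes 11.7%. Links between starts of 1 gene, which are not links between its ends, were 0.753%. Interactions with no start at an anchor were 45.2%, and those with a start at 1 anchor 42.3%. Anchors at ends of all annotated genes were 63.5%. At 20 and 30 kb, such links between both ends of 1 gene alone were 2.19% and interactions with 1 anchor at an end 43.0%. The median number of genes nearby was 4 within 100 kb, 30 within 1 Mb and 31 with all genes. Coding genes with a short interaction were 15.5% and 21.0% with the windows of 0 and 5 kb, 16.6% among genes of at most 10 kb, and 11.5% and 25.1% at 20 to 30 and 20 to 50 kb. Adjacent calls stood beside 78.1% with a limit of 2 bins and 53.3% among short interactions alone. The depth of the list is unknown, so a pair that is not listed cannot be read as a pair without contact.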

Other observations

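Several of the leading genes lie beside relatives, such as the Cd300 genes, Pnp and Pnp2, and Kbtbd6 and Kbtbd7. Gene symbols that share their first 4 characters were therefore counted as a crude sign of relatedness, leaving out symbols that only number a gene model. Among short interactions between ends of different coding genes, 118 of 1084 (10.9%, exact 95% interval 9.09 to 12.9%) joined such a pair. Among possible pairs of bins with ends of different genes it was 18.1%. The listed and possible shares were 6.92% and 15.7% at 50 to 90 kb, and 3.66% and 12.4% at 100 to 190 kb. The listed share was the lower one at each of the 3 ranges, with no test of the difference. The possible pairs were not matched to the listed ones for H3K27ac or gene density. The most frequent shared symbols among short interactions were those that begin with Cd30 (8 interactions), Prss (6) and Trim (6).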
